A study of Mus musculus with 8 samples.

Results

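The oligodendrocyte lineage was represented in the cerebellar RNA-seq data by 32 genes, taken by name from 56691 genes in the count table. The list was made of genes known to mark precursors, newly formed oligodendrocytes and myelinating oligodendrocytes, and the rule used no measured value, although the list was written with earlier results of these data known. All 32 were found in the table and all 32 passed the filter on low counts, so that none was left out below. RNA came from the cerebellum of 8 mice, 4 of genotype *ATM* +/+ (*Atm*-WT) and 4 of genotype *ATM* -/- (*Atm*-KO). Both came from the line B6;129S4-Atmtm1Bal/J, in which the knockout is in the germline and so affects every cell type, and the *Atm*-WT animals carried both intact alleles. Mice were 6 months old, and no treatment was given in the labels. Each library was 1 mouse. Mice are named here as in the labels, 2M, 7M, 13M and 32M for *Atm*-WT and 1M, 7F, 11M and 12M for *Atm*-KO, and values for single mice are given in that order throughout. The letters M and F were not explained in the labels.

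Oligodendrocytes are the glial cells that wrap axons of the central nervous system in myelin, a stack of lipid-rich membrane that speeds conduction. They arise from precursors that carry the receptor PDGFRA, pass through a short newly formed stage, and then make large amounts of a small set of membrane proteins together with the galactolipids of the sheath. In the cerebellum most of them lie in the white matter and around the deep nuclei, and few lie in the molecular layer of the cortex. In bulk tissue, fewer oligodendrocytes and less RNA per oligodendrocyte cannot be told apart. Bulk tissue also does not show how much RNA of a member, such as *Trf* or *Cspg4*, came from other cell types.

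Levels are given as CPM, the deposited counts scaled to the same library total in every mouse after trimmed mean of M values (TMM) normalization. Differences are log2 fold changes of *Atm*-KO against *Atm*-WT from edgeR's quasi-likelihood test with their standard error (SE). Library totals ran from 65967130 counts in *Atm*-KO 12M to 88030300 in *Atm*-WT 13M. The member with the fewest counts, *Ninj2*, had between 38 and 79 in each library, and every other member had at least 181. *Atm* itself (chromosome 9, 53348097 to 53448236) stood at 71.5 ± 10.1 CPM in *Atm*-WT mice and 45.4 ± 4.16 CPM in *Atm*-KO (SD, n = 4 each), with a log2 fold change of -0.66 (SE 0.10, edgeR adjusted p = 0.0775). The 4 *Atm*-KO mice all lay below the 4 *Atm*-WT mice for *Atm*. Markers of the labelled tissue were plentiful, with the granule cell gene *Fat2* at 1833 CPM and the Purkinje cell gene *Itpr1* at 6088 CPM in *Atm*-WT. The summed level of 13 hindbrain Hox genes was at most 1.14 CPM in any mouse, and none of them passed the filter.

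Sequence next to a RefSeq transcription start of 4 members is shown as examples of the 2 directions described below. *Mobp* and *Cnp* were among the 3 members whose levels in *Atm*-KO all lay below those of *Atm*-WT, and *Opalin* and *Aspa* were among the 3 members with a higher mean in *Atm*-KO. Sequences are RefSeq promoters (table build GRCm38.p6) that matched GRCm39 exactly and once, written 5′ to 3′ on the strand of the gene and ended before the first exon of the gene annotated in that window. For *Cnp* and *Opalin* this stretch borders the annotated gene, whereas for *Mobp* and *Aspa* the RefSeq start lies inside the gene, downstream of the outermost start in GENCODE, so the stretch printed is within the gene. The sequences lie at chr9:119978558-119978683 (plus strand) for *Mobp*, chr11:100465515-100465729 (plus) for *Cnp*, chr19:41065554-41065802 (minus) for *Opalin* and chr11:73215512-73215713 (minus) for *Aspa*. Capitals mark short words searched on both strands. They are ACAAAG, a word bound by SOX factors whose reverse form reads CTTTGT, the further SOX word AACAAT whose reverse form reads ATTGTT, the word CTGGCAC bound by MYRF, whose reverse form reads GTGCCAG, and the E-box CAGCTG, which reads the same on both strands.
Mobp: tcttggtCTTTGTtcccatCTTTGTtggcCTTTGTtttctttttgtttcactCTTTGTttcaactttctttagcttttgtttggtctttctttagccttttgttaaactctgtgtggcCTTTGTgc
Cnp: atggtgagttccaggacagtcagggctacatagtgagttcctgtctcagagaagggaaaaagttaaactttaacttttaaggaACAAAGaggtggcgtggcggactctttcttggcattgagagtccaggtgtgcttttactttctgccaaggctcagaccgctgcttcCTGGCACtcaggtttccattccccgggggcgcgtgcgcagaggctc
Opalin: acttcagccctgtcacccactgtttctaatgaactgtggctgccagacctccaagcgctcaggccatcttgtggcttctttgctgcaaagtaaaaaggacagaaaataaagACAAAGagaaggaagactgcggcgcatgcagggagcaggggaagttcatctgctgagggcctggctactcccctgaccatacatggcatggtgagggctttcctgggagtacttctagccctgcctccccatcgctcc
Aspa: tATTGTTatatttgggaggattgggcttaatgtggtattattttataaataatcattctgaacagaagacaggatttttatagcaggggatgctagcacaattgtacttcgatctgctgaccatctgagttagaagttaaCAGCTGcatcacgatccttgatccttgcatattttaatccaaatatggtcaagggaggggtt

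The stretch of *Mobp* carried CTTTGT again and again, with 6 copies in the 250 bases before its RefSeq start, of which 5 lie in the part printed. It was the only 1 of 32851 RefSeq promoters with 6 or more copies of ACAAAG counted on both strands, a count made after the sequence had been seen. At least 2 copies were held by 571 promoters (1.74%). RefSeq promoters were matched for 23 of the 32 members. Members were counted per gene, with the word in any promoter of the gene, whereas shares of all are per promoter. ACAAAG was present in 8 of these 23 (34.8%), which were *Apln*, *Cnp*, *Gjb1*, *Mag*, *Mobp*, *Opalin*, *Plekhb1* and *Tspan2*, and in 16.5% of all promoters. AACAAT was found in 4 members (17.4%) and in 9.4% of all promoters. CTGGCAC was found in 2 members, *Cnp* and *Mag* (8.7%), and in 4.2% of all. CAGCTG was in 3 members, *Aspa*, *Lhfpl3* and *Ninj2*, a share equal to that of all promoters at this precision (13%). The GC box GGGCGG was in 8 members (34.8%) and in 32.7% of all. None of these words contains another. A match to such a word is a description of the letters, and its relation to the fold changes was not tested.

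Taken over the 32 genes, 29 had a lower and 3 a higher level in *Atm*-KO, and the median log2 fold change was -0.18. Over all 22423 genes tested, 11900 were lower and the median was -0.018, and over the 9955 genes with a mean of at least 10 CPM it was -0.057. The members ran from -0.73 for *Mobp* to 0.21 for *Aspa*. No member passed an adjusted p of 0.05 in edgeR, a threshold passed by 0.0178% of all genes, and the lowest adjusted p was 0.125. At an unadjusted p under 0.05, 6 members were lower, namely *Mobp*, *Trf*, *Cnp*, *Mbp*, *Mal* and *Plekhb1*, beside 8.48% of all genes lower. None of the 32 was higher at that level, beside 11.7% of all genes. Scaled by library size alone, 27 of the 32 had a lower level, 5 of them at an unadjusted p under 0.05, and the shares of all genes were 4.66% lower and 14.6% higher. With 1 surrogate variable as a covariate, 19 members were lower and 13 higher, with a median of -0.0132. The levels of the genotypes did not overlap for 3 members, *Mobp*, *Cnp* and *Trf*, all lower in *Atm*-KO, where 5.12% of all genes were lower without overlap. No member was higher without overlap, beside 6.47% of all genes. Scaled by library size alone, *Cnp* overlapped, with 302 CPM in *Atm*-KO 11M against 292 CPM in *Atm*-WT 13M, and 2 members were left without overlap, beside 2.64% of all genes lower and 8.3% higher. With DESeq2, 1 member, *Trf*, passed an adjusted p of 0.05 (adjusted p = 0.0399), beside 2.44% of genes lower and 5.05% higher. Abundant genes were lower more often, at 14.4% for an unadjusted p under 0.05 and 8.42% without overlap among genes with a mean of at least 10 CPM. Of the 28 members at that level, 6 and 3 were lower by these criteria, so the members without overlap were near that background.

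**Figure D1:**
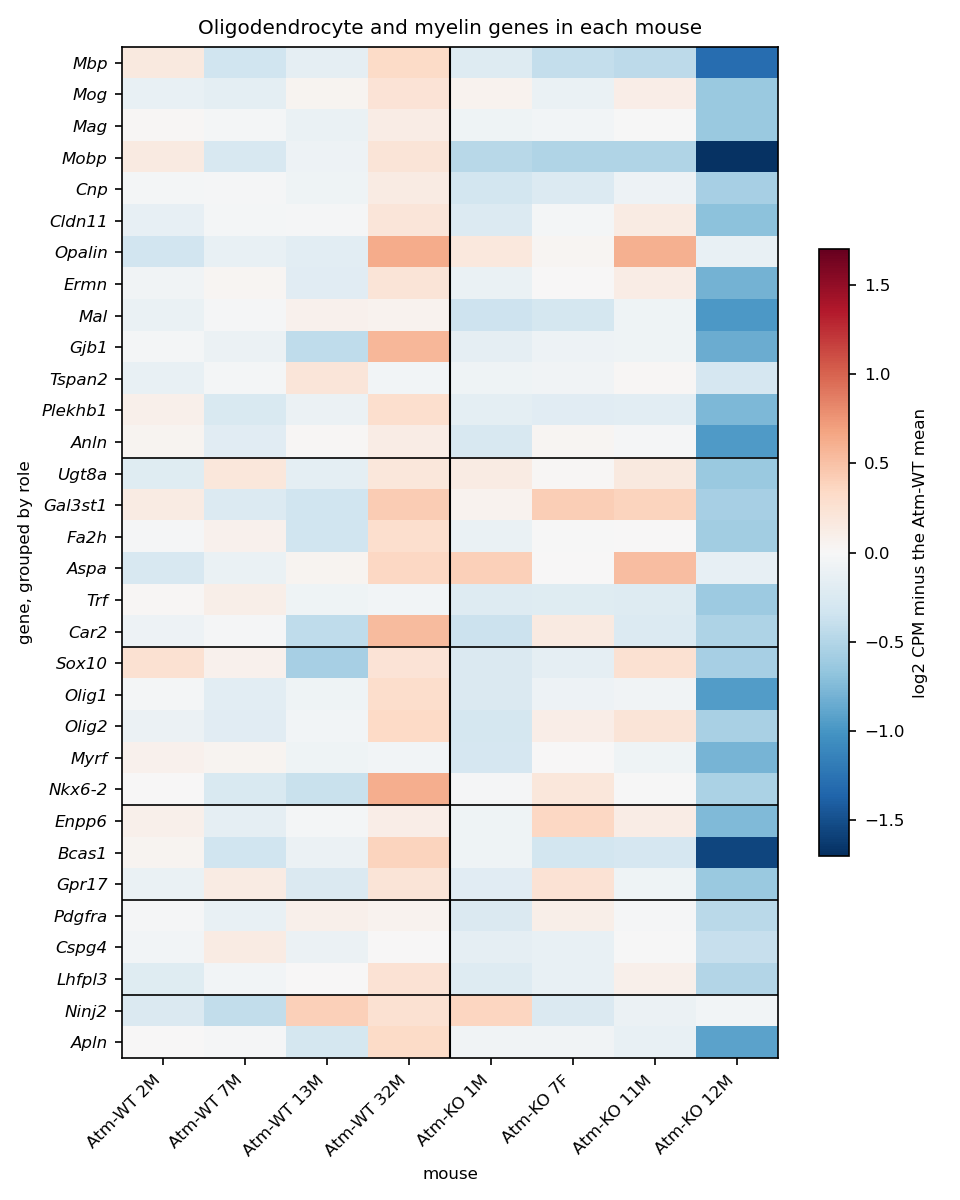
Each row is 1 of the 32 genes, grouped by role from sheath proteins at the top to subtype genes at the bottom, and each column is 1 mouse. Colour gives log2 CPM minus the mean of the 4 *Atm*-WT mice. The column of *Atm*-KO 12M is blue in all 32 rows, and *Atm*-WT 32M holds the highest value in 20 of them.

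Myelin membrane and sheath proteins formed the largest role group, with 13 members, of which 12 were lower in *Atm*-KO, with a median log2 fold change of -0.26. *Mobp* (chromosome 9, 119973770 to 120011273, plus strand), which codes for myelin-associated oligodendrocyte basic protein, a small protein between the compacted membranes, showed the largest difference of all 32. Its level was 450.4, 336, 381 and 471 CPM in the *Atm*-WT mice and 292, 285, 284 and 126.5 CPM in the *Atm*-KO mice. All *Atm*-KO mice were below all *Atm*-WT mice, 3 of them close together and 12M far below, and the log2 fold change was -0.73 (SE 0.22, edgeR adjusted p = 0.125). An exact two-sided permutation test over the mice gave 0.0286 for *Mobp*, the smallest p that 4 against 4 can give. Every gene without overlap, *Cnp* and *Trf* among them, gets this value, so it only restates the lack of overlap. Of all genes, 5.12% were lower without overlap.

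*Mbp* (chromosome 18, 82493207 to 82603763), which codes for the myelin basic protein that zips the inner membrane faces together, had the highest level per length of all members, at 123 CPM per kb of exon in *Atm*-WT. In the *Atm*-WT mice it reached 1324, 936, 1069 and 1481 CPM, and in the *Atm*-KO mice 1019, 890.2, 869 and 482 CPM. The genotypes overlapped through *Atm*-KO 1M, which lay above *Atm*-WT 7M. The log2 fold change was -0.56 (SE 0.21, edgeR adjusted p = 0.171).

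*Cnp* (chromosome 11, 100465730 to 100482936, plus strand), the gene of the phosphodiesterase that keeps cytoplasmic channels of the sheath open, differed less but with a narrow spread. The *Atm*-WT mice had 310, 311, 299.9 and 349 CPM, and the *Atm*-KO mice had 256, 269, 298.5 and 214 CPM. *Atm*-KO 11M came close to *Atm*-WT 13M without reaching it. The log2 fold change was -0.29 (SE 0.095, edgeR adjusted p = 0.141). *Mal*, which codes for a proteolipid of raft membranes, stood at 126, 134, 143 and 142 CPM in *Atm*-WT mice and at 107, 110.1, 129 and 69.3 CPM in *Atm*-KO, with a log2 fold change of -0.39 (SE 0.15, edgeR adjusted p = 0.177). *Plekhb1*, which codes for a protein with a pleckstrin homology domain, had a log2 fold change of -0.32 (SE 0.14, edgeR adjusted p = 0.234).

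The remaining sheath genes lay closer to the spread between mice. *Gjb1*, the gene of the gap junction protein connexin 32, was at -0.30 and *Anln*, which codes for a septin-binding scaffold protein, at -0.26. *Cldn11*, the gene of the claudin that seals the sheath, was at -0.18, the adhesion receptor gene *Mag* at -0.17, *Ermn*, which codes for an actin-linked protein of mature cells, at -0.16, *Mog*, which codes for a surface glycoprotein of the outermost lamella, at -0.12 and the tetraspanin gene *Tspan2* at -0.10. *Opalin*, which codes for a glycoprotein of late oligodendrocytes, was the exception in direction. Its values were 5.17, 5.95, 5.70 and 10.05 CPM in *Atm*-WT mice and 7.35, 6.66, 9.83 and 5.94 CPM in *Atm*-KO. *Atm*-WT 32M stood far above the other 3 mice of its genotype, and the groups overlapped fully (log2 fold change 0.15, SE 0.22, edgeR adjusted p = 0.748).

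**Figure D2:**
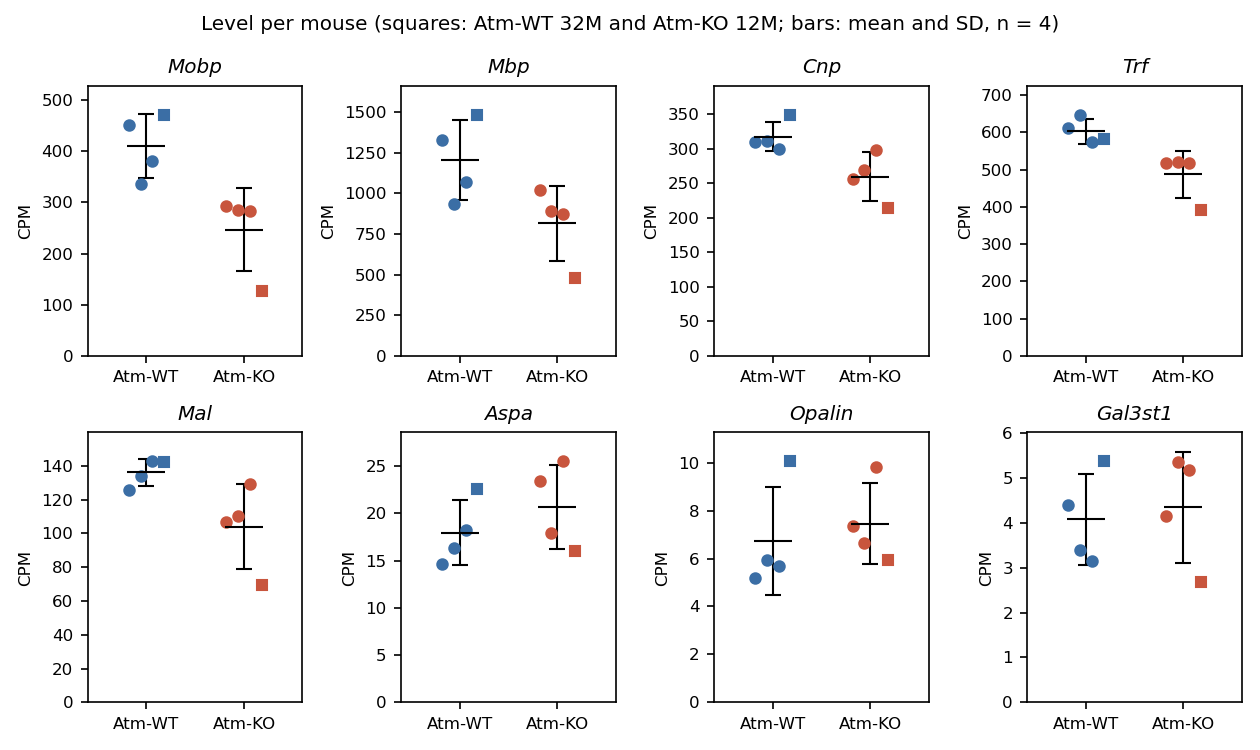
CPM of 8 genes in each mouse, with the mean and SD per genotype (n = 4) and an axis from 0 in each panel. The square in *Atm*-KO is mouse 12M, which is the lowest of the 4 in every panel. In *Mobp* the other 3 *Atm*-KO mice lie between 284 and 292 CPM, also below the lowest *Atm*-WT mouse at 336 CPM.

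Genes of myelin lipid synthesis, metabolism and iron transport made up 6 members, and they did not share a direction, with 4 lower, 2 higher and a median of -0.11. *Trf* (chromosome 9, 103081200 to 103107814, minus strand) codes for transferrin, the iron carrier that oligodendrocytes make in quantity. It had 613, 647, 573 and 581 CPM in the *Atm*-WT mice and 519, 521, 519 and 392.5 CPM in the *Atm*-KO mice. No *Atm*-KO mouse reached the lowest *Atm*-WT value, and 3 of the 4 lay close together, with a log2 fold change of -0.31 (SE 0.095, edgeR adjusted p = 0.128). *Car2*, the gene of a carbonic anhydrase, was at -0.26 (SE 0.19), *Fa2h*, the gene of the hydroxylase for sheath galactolipids, at -0.18 (SE 0.15) and *Ugt8a*, the gene of the galactosyltransferase that makes galactosylceramide, at -0.05 (SE 0.16).

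The other 2 of this group had the highest and the third highest fold change of the 32. *Aspa* (chromosome 11, 73187042 to 73220422, minus strand) codes for the aspartoacylase that splits N-acetylaspartate. Its level was 14.7, 16.4, 18.3 and 22.6 CPM in *Atm*-WT mice and 23.4, 17.9, 25.5 and 16.1 CPM in *Atm*-KO. Mice 1M and 11M lay above every *Atm*-WT mouse and 12M below 3 of them, for a log2 fold change of 0.21 (SE 0.16, edgeR adjusted p = 0.510). *Gal3st1*, which codes for the sulfotransferase that turns galactosylceramide into sulfatide, was at 4.39, 3.38, 3.16 and 5.36 CPM in *Atm*-WT mice and 4.15, 5.36, 5.18 and 2.68 CPM in *Atm*-KO. The groups overlapped for *Gal3st1*, with 12M below every *Atm*-WT mouse, and with a log2 fold change of 0.09 (SE 0.24, edgeR adjusted p = 0.864).

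All 5 lineage transcription factors had a lower mean in *Atm*-KO, with a median of -0.18, and none passed an unadjusted p of 0.05. *Olig1*, a helix-loop-helix factor of the whole lineage and the member of this group with the highest level per length, had 50.6, 45.9, 49.2 and 63.8 CPM in *Atm*-WT mice and 43.9, 49.0, 50.0 and 27.0 CPM in *Atm*-KO. Apart from 32M and 12M the mice of both genotypes lay between 43.9 and 50.6 CPM, and the log2 fold change was -0.30 (SE 0.17, edgeR adjusted p = 0.342). *Myrf*, the factor that switches on myelin genes, was at -0.26 (SE 0.14), *Sox10*, which acts upstream of it, at -0.18 (SE 0.20), *Nkx6-2* at -0.12 (SE 0.23) and *Olig2* at -0.11 (SE 0.17).

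Genes of newly formed oligodendrocytes were lower for 3 of 3, with a median of -0.14. *Bcas1*, a marker of cells that have just begun to myelinate, was 88.7, 67.8, 79.9 and 111 CPM in *Atm*-WT mice and 81.3, 69.2, 69.9 and 28.9 CPM in *Atm*-KO. Its log2 fold change of -0.48 (SE 0.26, edgeR adjusted p = 0.314) was the third largest decrease of the 32, but 3 of the 4 *Atm*-KO mice lay inside the *Atm*-WT range. The receptor gene *Gpr17* was at -0.14 (SE 0.17) and *Enpp6*, which codes for a choline phosphodiesterase, at -0.03 (SE 0.19). The 3 precursor genes had lower means by a similar margin, *Lhfpl3* at -0.18 (SE 0.12), *Cspg4*, the gene of the NG2 proteoglycan, at -0.17 (SE 0.10) and *Pdgfra*, the gene of the growth factor receptor, at -0.14 (SE 0.11). *Lhfpl3* had 34.7, 38.7, 40.4 and 47.5 CPM in *Atm*-WT mice and 34.4, 36.8, 42.5 and 28.4 CPM in *Atm*-KO, with 3 *Atm*-KO mice near or inside the *Atm*-WT range. Of the 2 genes of further subtypes, *Apln*, which codes for the peptide apelin, had 25.2, 24.8, 20.4 and 31.5 CPM in *Atm*-WT mice and 24.0, 24.1, 23.1 and 13.4 CPM in *Atm*-KO, and again only 12M left the *Atm*-WT range (log2 fold change -0.27, SE 0.18, edgeR adjusted p = 0.429). *Ninj2*, at 0.71 CPM in *Atm*-WT mice and 0.70 CPM in *Atm*-KO, was the weakest member and was at -0.03 (SE 0.28).

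*Atm*-KO 12M stood apart from the other 7 mice across the 32 members. It was the lowest of the 8 in 29 of the 32 members, below every *Atm*-WT mouse in 29 and below the *Atm*-WT mean in 32. Its median deviation from the *Atm*-WT mean was -0.63 on the log2 scale, from -1.68 for *Mobp* to -0.05 for *Ninj2*. For the other *Atm*-KO mice the median deviation was -0.16 in 1M, -0.06 in 7F and -0.02 in 11M, and for *Atm*-WT mice it was -0.03 in 2M, -0.07 in 7M and -0.09 in 13M, so that 7F and 11M lay within the *Atm*-WT range. *Atm*-WT 32M was highest in 20 of 32 members, with a median deviation of 0.23. Summed over the 32 genes, *Atm*-WT mice had 4273, 3773, 3860 and 4771 CPM and *Atm*-KO mice 3546, 3519, 3567 and 2222 CPM, and these sums, carried by a few abundant genes such as *Mbp* and *Trf*, did not overlap. With every member weighted equally, the mean deviation was -0.04, -0.09, -0.12 and 0.24 in *Atm*-WT and -0.13, -0.05, 0.01 and -0.69 in *Atm*-KO, and the genotypes overlapped. The median coefficient of variation of a member was 15.1% in *Atm*-WT, 22.7% in *Atm*-KO and 9.0% in *Atm*-KO without 12M, and 25 members varied more in *Atm*-KO than in *Atm*-WT.

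Without *Atm*-KO 12M, 23 members were lower and 9 higher, and the median was -0.06. Without it 5 members stayed lower at an unadjusted p under 0.05, *Mobp*, *Trf*, *Mal*, *Mbp* and *Cnp*, beside 6.01% of all genes. Without *Atm*-WT 32M, 24 were lower with a median of -0.11, 4 of them at an unadjusted p under 0.05 (background 6.96%), and *Opalin* was higher at that level (background 8.65%). A fit without both mice was an alternative chosen after seeing the data. It left out the *Atm*-KO mouse lowest in 29 members and the *Atm*-WT mouse highest in 20, a choice that by itself moves the difference upward. This fit left 15 members lower and 17 higher with a median of 0.01. In it, the same 5 genes were lower at an unadjusted p under 0.05 (background 6.05%), and *Opalin*, *Aspa* and *Gal3st1* were higher (background 7.34%). No member passed an adjusted p of 0.05 in any of these 3 fits. Of all genes, 6 of 22844 passed it without 12M, 10 of 22845 without 32M and 24 of 22550 without both.

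These 5 genes were named by their p in this fit of 6 mice, so their direction in it follows from that choice. Their differences were smaller than with all 8 mice. *Mobp* had a log2 fold change of -0.44 (edgeR adjusted p = 0.136), *Mbp* -0.26 (adjusted p = 0.350), *Trf* -0.23 (adjusted p = 0.202), *Mal* -0.22 (adjusted p = 0.305) and *Cnp* -0.16 (adjusted p = 0.370). In the same 6 mice *Opalin* was at 0.50 (adjusted p = 0.236), *Aspa* at 0.44 (adjusted p = 0.204) and *Gal3st1* at 0.43 (adjusted p = 0.347). By role, the sheath genes then counted 8 lower of 13 with a median of -0.04, the lipid, metabolic and iron genes 1 lower of 6 with a median of 0.11, the transcription factors 2 of 5 with a median of 0.01, the newly formed genes 1 of 3 with a median of 0.07, the precursor genes 3 of 3 with a median of -0.03 and the subtype genes 0 of 2 with a median of 0.04.

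**Figure D3:**
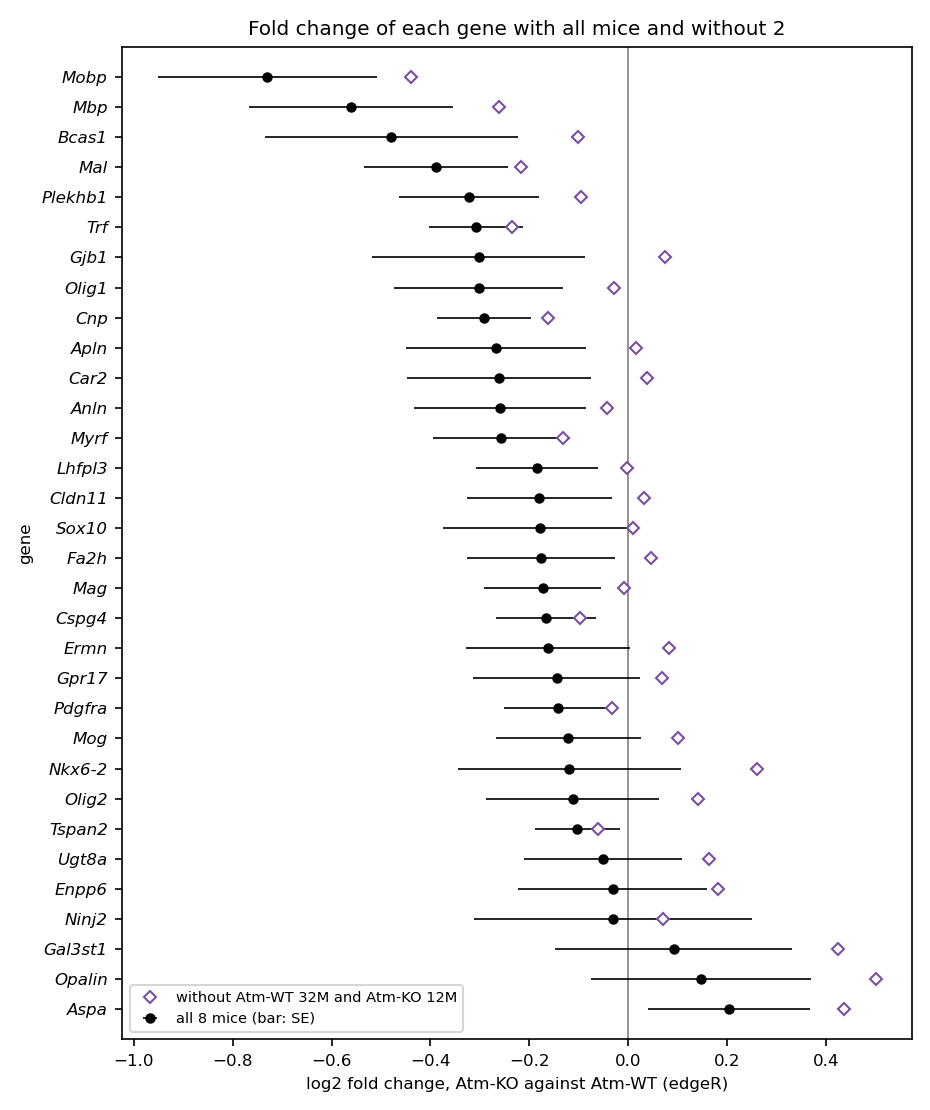
Log2 fold change of *Atm*-KO against *Atm*-WT for each of the 32 genes, filled circles with SE for all 8 mice and open diamonds for the 6 mice left without *Atm*-WT 32M and *Atm*-KO 12M. With all mice 29 circles lie left of 0, and with 6 mice 15 diamonds do, with *Mobp* still lowest at -0.44.

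The members also differed in how far each departed from the rest of the lineage. After the median deviation of the 32 members was taken off in each mouse, *Mobp* stood at 0.18, -0.20, 0.00 and -0.02 in *Atm*-WT and at -0.31, -0.45, -0.50 and -1.06 in *Atm*-KO on the log2 scale. It was thus lower than its lineage in each *Atm*-KO mouse, by more than in any *Atm*-WT mouse, and its difference between genotypes was -0.57. The next lowest differences were those of *Mbp* (-0.37), *Bcas1* (-0.33) and *Mal* (-0.20), and the highest those of *Aspa* (0.42), *Opalin* (0.40) and *Gal3st1* (0.30). These relative values are a description with no test, since the members themselves set the reference.

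Other genes of the lineage, on lists written by hand with earlier results of these data known, were counted in the same way. Of 38 other mature oligodendrocyte genes tested, 32 were lower and 6 higher, with a median of -0.21. At an unadjusted p under 0.05, 13 were lower and 2 higher (8.48% and 11.7% of all genes), none passed an adjusted p of 0.05 in edgeR, and DESeq2 called 7 lower and 1 higher (2.44% and 5.05% of all genes). *Cryab*, which codes for the chaperone alpha B-crystallin, had 33.0, 26.1, 16.6 and 32.9 CPM in *Atm*-WT mice and 9.88, 15.5, 11.2 and 13.4 CPM in *Atm*-KO, with a log2 fold change of -1.12 (SE 0.21, edgeR adjusted p = 0.0931). *Apod*, the gene of the lipid carrier apolipoprotein D, had 188, 200, 150 and 171 CPM in *Atm*-WT mice and 86.1, 119, 122 and 82.8 CPM in *Atm*-KO, with a log2 fold change of -0.79 (SE 0.14, edgeR adjusted p = 0.0931). *Cd9*, which codes for a tetraspanin, was at -0.35 (SE 0.09, edgeR adjusted p = 0.102). For these 3 genes, which many other cell types also express, the genotypes did not overlap, and 12M lay near other *Atm*-KO mice. Without 32M and 12M, 25 of the 38 were lower with a median of -0.10, and at an unadjusted p under 0.05, 9 were lower and 2 higher (6.05% and 7.34% of all genes).

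Lists of the earlier stages and of the axonal partners were counted too, and their few genes at an unadjusted p under 0.05 stand beside the same 8.48% of all genes lower and 11.7% higher. Of 10 other precursor genes 7 were lower with a median of -0.09, and 1 had an unadjusted p under 0.05, *Cacng4*, the gene of an AMPA receptor auxiliary subunit (log2 fold change -0.36, SE 0.09, edgeR adjusted p = 0.106). Of 10 other genes of newly formed cells 5 were lower and 5 higher. Of 11 further regulators of the lineage 9 were lower with a median of -0.05, and 1, *Id4*, had an unadjusted p under 0.05. The sum of these regulators in *Atm*-KO 12M, 772.3 CPM, lay above those in 1M (755.5 CPM) and 11M (756 CPM). Of 10 axonal genes of the node region, which contact myelin from the neuron, 7 were higher with a median of 0.02, and 2 had an unadjusted p under 0.05. Of these, *Cntnap1*, the gene of the paranodal protein Caspr, was at 0.23 (SE 0.07, edgeR adjusted p = 0.124) and *Sptbn4*, the gene of a spectrin of the node, at 0.25 (SE 0.08, edgeR adjusted p = 0.138).

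Markers of other cell types also differed in the mice that stood apart. The summed level of 10 genes of deep nuclei and brainstem neurons was 643, 620, 575 and 721 CPM in *Atm*-WT mice and 535, 620, 696 and 316 CPM in *Atm*-KO, lowest in 12M and highest in 32M. With every gene of that list weighted equally, the mean deviation from *Atm*-WT on the log2 scale was again lowest in 12M (-1.09) but highest in *Atm*-KO 11M (0.93) and 7F (0.66), above 32M (0.42). *Slc17a6*, the vesicular glutamate transporter gene of that list, named after its values were seen, was at 74.3, 75.9, 73.7 and 116 CPM in *Atm*-WT mice and at 76.4, 80.1, 107 and 4.32 CPM in *Atm*-KO. *Nefh*, *Nefm*, *Spp1* and *Vamp1* were also lowest in 12M, by smaller margins. *Slc6a5*, the glycine transporter gene of the list, was at 55.2 CPM in 12M and 49.1 to 64.8 CPM in *Atm*-WT, *Ndnf* at 19.0 against 19.3 to 23.5 CPM and *Tph2* at 1.21 against 0.46 to 1.26 CPM. The summed level of 6 granule cell genes was highest in 12M, at 6559 CPM against 4486 to 5532 CPM in the others. When the mean of the deep nuclei and brainstem list was entered as a covariate, 21 members were lower at an unadjusted p under 0.05 (background 14.3%) and 14 passed an adjusted p of 0.05 (background 10.7%). That list included genes near 0, with *Slc18a3* at no more than 0.697 CPM in any mouse, and they weighed as much in its mean as abundant ones. When the other mature oligodendrocyte genes were entered instead, no member was lower at an unadjusted p under 0.05 (background 3.21%). In that fit 6 were higher, *Ermn*, *Nkx6-2*, *Enpp6*, *Gal3st1*, *Aspa* and *Opalin* (background 4.77%). Without the filter on low counts *Mobp* passed an adjusted p of 0.05 (adjusted p = 0.0345), as did 1.62% of all genes.

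**Figure D4:**
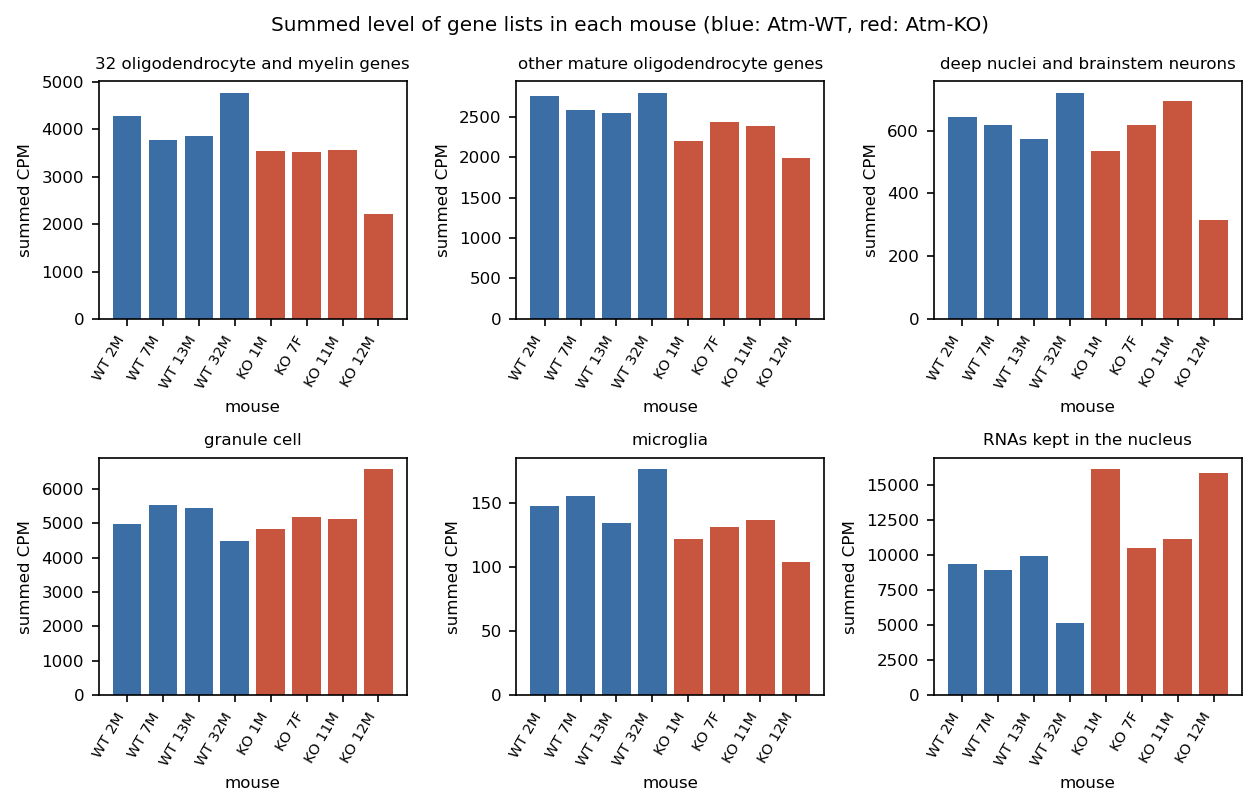
Summed CPM of 6 gene lists in each mouse, in the order of the labels, with *Atm*-WT in blue and *Atm*-KO in red. *Atm*-KO 12M is lowest for the 32 genes (2222 CPM) and for the deep nuclei and brainstem genes (316 CPM), and highest for the granule cell genes (6559 CPM). *Atm*-WT 32M is lowest for the RNAs kept in the nucleus (5138 CPM).

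Further lists were counted beside the members. RNAs kept in the nucleus were higher for 8 of 10, with a median of 0.70, and their sum ran from 5138 to 9974 CPM in *Atm*-WT, lowest in 32M, and from 10480 to 16120 CPM in *Atm*-KO. Genes of other glia and of vessels were lower as well, 8 of 8 for astrocytes and Bergmann glia with a median of -0.20, 7 of 7 for microglia with a median of -0.39, 6 of 6 for mural cells with a median of -0.36 and 4 of 6 for endothelial cells with a median of -0.23. Choroid plexus genes were lower for 6 of 6 with a median of -0.55, and their sum ran from 780 to 1548 CPM in *Atm*-WT mice and from 427 to 1209 CPM in *Atm*-KO. Purkinje cell genes were lower for 5 of 6 with a median of -0.07, meningeal fibroblast genes for 4 of 6 with a median of -0.21 and granule cell genes for 2 of 6 with a median of 0.05. Red blood cell genes were higher for 5 of 5, with sums from 5.87 to 49.5 CPM, and cycling cell genes reached at most 4.81 CPM in sum. Schwann cells, which make the myelin of peripheral nerves, left little trace: *Pmp2* had no count in any mouse and *Prx* reached at most 0.851 CPM, while *Drp2* stood at 38.2 to 49.6 CPM. Whether these lists and the members share a cause was not tested.

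Position and overlap with other genes were checked because the strand setting of the counting was not stated. Exons of 19 of the 32 members overlapped exons on the opposite strand, among them *Mobp* (*Gm5922* and *Gm69218*), *Cnp* (*Dnajc7*), *Trf* (*Gm69171*), *Mbp* (*Gm58827*), *Opalin* (*Dntt*) and *Aspa* (*Trpv3*), so reads from the other strand could be included in these counts. On the chromosome of *Atm* lay 4 members, *Cspg4* at 3.32 Mb from *Atm*, *Anln* at 31.0 Mb, *Trf* at 49.6 Mb and *Mobp* at 66.5 Mb.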

How the data were processed

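RNA of frozen cerebellum was sequenced by a service company on an Illumina HiSeq instrument. The authors checked reads with FastQC 0.11.9, aligned them with STAR to GRCm39 (GENCODE Release 28) and counted them with featureCounts. The deposited values are raw counts per gene, not normalized. Strand and pair settings were not given in the sources used here. Gene symbols were matched by identifier to GENCODE vM39 (56017 of 56691 genes, 98.8%).

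Libraries were grouped by the genotype in their labels, with 4 per group. Genes were kept by filterByExpr (22423), scaled by TMM and tested with glmQLFit and glmQLFTest of edgeR 4.0.16 in R 4.3.3, with p-values adjusted by Benjamini-Hochberg across all tested genes, without covariates. The code was tested on simulated data with known changes. CPM used TMM-scaled totals, and log2 CPM a prior count of 2. SE was derived from the fold change and the F statistic. Single values were compared by an exact permutation test over mice. Alternatives were DESeq2 1.42.0, voom of limma 3.58.1, other scaling and filters, 1 surrogate variable (sva 3.50.0), 2 list covariates and leaving out mice. P-values measure the spread between these mice.

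The members and lists were chosen with earlier results of these data known. Values in every mouse were given for members whose genotypes did not overlap, the 3 largest increases and the 3 largest decreases among members above a mean of 1 CPM, and the highest level per length in each role group, with *Mal* added after its values were seen. From each other lineage list up to 3 genes with the smallest p were named. 1 listed mature gene was not matched. The value of 1 marker gene is not reported here.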

Additional observations from a re-analysis of the deposited data

Results flagged for a closer look

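For 12 of 114 sets of 4 mice (each member and each list in each genotype), 1 mouse lay so far from the other 3 that the gap, as a share of the whole range, exceeded Dixon's critical value for 4 samples, where about 1 in 20, or 5.7, would do so by chance. In 11 of the 12 the mouse was *Atm*-KO 12M, and the sets share mice and genes, so they are not independent.

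In *Atm*-KO 12M, *Mobp* was at 126.5 CPM (the other 3 *Atm*-KO mice at 284 to 292), *Trf* at 392.5 CPM (519 to 521), *Plekhb1* at 143.1 CPM (212 to 216), *Mag* at 74.13 CPM (109 to 114), *Apln* at 13.37 CPM (23.1 to 24.1) and *Gjb1* at 8.053 CPM (13.03 to 13.8). Summed levels in the same mouse were 2222 CPM for all members (3519 to 3567 in the others), 1414 CPM for sheath proteins (2323 to 2418), 587.2 CPM for lipid, metabolic and iron genes (785 to 821), 45.89 CPM for newly formed oligodendrocyte genes (97.3 to 106) and 14.03 CPM for the subtype genes (23.7 to 24.9). In *Atm*-WT 32M, *Opalin* was at 10.05 CPM (5.17 to 5.95 in the others).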

How the results depend on the processing

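No paired analysis was made because the labels give no pairing of mice between the 2 genotypes.

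Of the members, 0 passed an adjusted p of 0.05 with edgeR, 1 with DESeq2, 1 without the filter on low counts and 14 with the deep nuclei and brainstem covariate. The count lower at an unadjusted p under 0.05, 6 with all mice, was 21 with that covariate. It was 0 with the covariate of other mature oligodendrocyte genes (3.21% of all genes) and 4 to 7 when single mice were left out (5.67% to 8.63% of all genes). The count higher, 0 with all mice, was 2 with a surrogate variable (8.1% of all genes were higher), 6 with the mature covariate, 3 without *Atm*-WT 32M and *Atm*-KO 12M together and 0 to 1 when single mice were left out. The members' median of -0.1768 was -0.0132 with a surrogate variable, 0.1845 with the mature covariate, 0.0136 without both mice and -0.2526 to -0.0588 without single mice. Members without overlap numbered 3 to 5 without single mice, all lower, beside 6.19% to 9.48% of all genes lower.

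*Atm* was past an adjusted p of 0.05 with DESeq2 (-0.6568), without the filter (-0.6583), with a surrogate variable (-0.7053), with the brainstem covariate (-0.6352) without both mice (-0.734) and without *Atm*-WT 32M alone (-0.74), and ran from -0.74 to -0.5864 without single mice. With the mature covariate 25 of the 32 members were higher, and without both mice 17. Among members given in every mouse, the mature covariate turned the sign of *Mbp* (0.0109), *Bcas1* (0.229), *Apln* (0.2348), *Olig1* (0.1822) and *Lhfpl3* (0.0806), and leaving out both mice that of *Apln* (0.0168). Without single mice *Opalin* ran from -0.0033 (without *Atm*-KO 11M) to 0.4071 and *Gal3st1* from -0.0067 (without *Atm*-KO 7F) to 0.264, and *Gal3st1* was -0.0384 with the brainstem covariate. The causes were not tested. *Mobp*, *Cnp* and *Trf* kept their sign in all 18 alternatives, but shrank to -0.1235, -0.0645 and -0.1453 with the mature covariate. These are the members without overlap, so leaving out mice could hardly turn their sign, and those alternatives were no check on it. Scaling by library size alone moved the median of all genes from -0.018 to 0.031.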

Other observations

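*Tcf7l2*, which codes for a Wnt pathway factor of newly formed oligodendrocytes that thalamic and midbrain neurons also express, was at 46.7, 52.8, 53.1 and 54.0 CPM in *Atm*-WT mice and at 47.0, 44.9, 55.2 and 9.28 CPM in *Atm*-KO, named after its values were seen. Its low value thus fell in the mouse in which *Slc17a6* was at 4.32 CPM and *Mobp* at 126.5 CPM. *Mcam*, on the list of other mature oligodendrocyte genes and also known from pericytes and endothelium, ran against that list, at 31.6, 29.5, 37.0 and 34.0 CPM in *Atm*-WT mice and 39.7, 40.7, 41.0 and 39.5 CPM in *Atm*-KO (log2 fold change 0.28, SE 0.08, edgeR adjusted p = 0.110).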
